A study of Mus musculus with 22 samples.

Results

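The cadherin superfamily adhesion genes were followed here in ribosome-bound and lysate RNA of the mouse striatum, with and without a mutation of Fmr1. They were taken from the count tables by gene symbol, as every symbol that starts with Cdh and a digit, with Cdhr, Pcdh, Dchs or Celsr, together with the 4 Fat genes and without the endothelial Cdh5. The rule gave 105 genes of the 55341 counted. They fell into 5 type I and 12 type II classical cadherins, 4 delta-1 and 5 delta-2 protocadherins, 13 alpha, 22 beta and 22 gamma clustered protocadherins, 6 Fat and Dachsous genes, 3 Celsr genes and 13 other cadherins. The definition of the group also names Cdh4, Cdhr1 and Fat3, because they leaned lower in the mutant in earlier results of these data.

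Cadherins are calcium-dependent adhesion proteins with a chain of cadherin repeats outside the cell. Classical cadherins bind the same cadherin on the next cell and are coupled to actin by catenins. Delta protocadherins recruit the WAVE actin regulators, clustered protocadherins give neurons a surface identity through random choice of isoforms, Fat and Dachsous proteins form ligand and receptor pairs, and Celsr proteins set planar polarity and guide axons. In the striatum and its cortical inputs, several type II cadherins and delta-2 protocadherins are known for regional patterns and roles in synapse formation.

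The samples were 5 Fmr1 mutant animals (labelled KO, numbers 2, 3, 9, 10 and 11) and 6 wild-type animals (WT, numbers 1, 4, 12, 13, 14 and 20). All 11 carried EGFP-tagged ribosomal protein Rpl10a in medium spiny neurons that express the dopamine receptor Drd1 (D1 neurons). The series asks how translation in these neurons is altered in a mouse model of the fragile X condition. Each animal gave a pulldown of tagged ribosomes (IP) and a library of the lysate before the pulldown (labelled Total, called input here), so the groups were KO IP, WT IP, KO input and WT input. The IP therefore reports messages on ribosomes of the cells that drive the transgene, while the input holds RNA of all striatal cells after nuclei and insoluble membranes had been spun out. The labels give no age, strain or litter, and no type of Fmr1 allele. They state that pulldowns and sequencing were done as 1 batch with a kit that does not mark strand.

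Fmr1 had 9.36 to 13.1 CPM (counts-per-million, scaled to library size) in KO IP and 80.8 to 124.2 CPM in WT IP. It had 9.73 to 12.8 CPM in KO input and 51.7 to 63.0 CPM in WT input, and the genotypes did not overlap in either assay. Libraries held 13759027 to 49669222 counts in KO IP, 9375611 to 82376192 in WT IP, 28438717 to 43276230 in KO input and 25164548 to 38270808 in WT input. Of the D1 neuron markers, 10 of 10 were higher in IP than in input in both genotypes, and 6 of 6 tested D2 neuron markers were lower. Summed markers of cortical excitatory neurons were highest in animals 3 and 9 among KO, with 255 and 383 CPM in IP, and in animals 1 and 12 among WT, with 185 and 395 CPM in IP. The other 7 animals lay between 82.7 and 127 CPM. The input of WT animal 20 held 1910 CPM of ependyma and choroid plexus markers, against 23.9 to 52.0 CPM in the other inputs.

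The cadherin genes took a small and steady part of each library. They made up 0.211 to 0.259% of counts in KO IP, 0.225 to 0.3% in WT IP, 0.12 to 0.172% in KO input and 0.155 to 0.179% in WT input. In reads this was at least 31858 in KO IP, 25843 in WT IP, 34114 in KO input and 41480 in WT input. Of the 105 genes, 90 had enough reads for a test in at least 1 comparison. The 15 others, with at most 57 reads in any library, included the epithelial cadherins Cdh1, Cdh16 and Cdh17, the hair cell cadherin Cdh23, and Fat2. Cdh16 and Cdhr5 had 0 reads in all 22 libraries. The alpha and gamma clusters need a caution, because their isoforms share constant exons. A median of 53.6% of the exon bases of an alpha gene and 45.3% of a gamma gene lie in another gene's exons too. The counts of single isoforms there, their sums and their levels per kilobase are therefore uncertain.

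Levels per length show which adhesion genes dominate D1 neuron ribosomes. In CPM per kilobase of exon, scaled over all 22 libraries, Cdh13 had the highest mean level in IP, at 18.3 ± 2.24 in KO and 17.9 ± 1.69 in WT (SD, n = 5 and 6, as for all means below). Cdh13 encodes T-cadherin, which is anchored in the membrane by a lipid and has no tail inside the cell. Next came the type II cadherin Cdh9, with 17.3 ± 2.82 in KO IP and 15.9 ± 4.94 in WT IP. The delta-2 protocadherin Pcdh17, which in mice helps to sort basal ganglia synapses by region, had 15.1 ± 2.06 in KO IP and 15.6 ± 1.77 in WT IP. The ranges of mean ± SD of these 3 overlapped in both genotypes. Below them in WT IP came Fat3, Pcdh7, Cdh8, Pcdh10 and Pcdh9, between 13.4 ± 1.24 and 11.1 ± 1.87, and neighbours in this order did not differ beyond their SD.

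Input had another leading gene. Fat3, an atypical cadherin that shapes dendrites of retinal amacrine cells in mice, had the highest level per kilobase in both genotypes, with 22.2 ± 3.47 in KO input and 18.5 ± 2.21 in WT input. Pcdh9, Cdh9 and Pcdh17 followed with overlapping ranges of mean ± SD, with Pcdh17 at 11.1 ± 1.94 in KO input and 11.8 ± 0.792 in WT input. Cdh13 came after these in both, with 7.99 ± 1.33 in KO input and 8.98 ± 0.847 in WT input. N-cadherin (Cdh2), the main classical cadherin of synapses, stayed at 5.03 ± 1.18 in WT IP and 4.35 ± 0.697 in WT input.

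**Figure D1:**
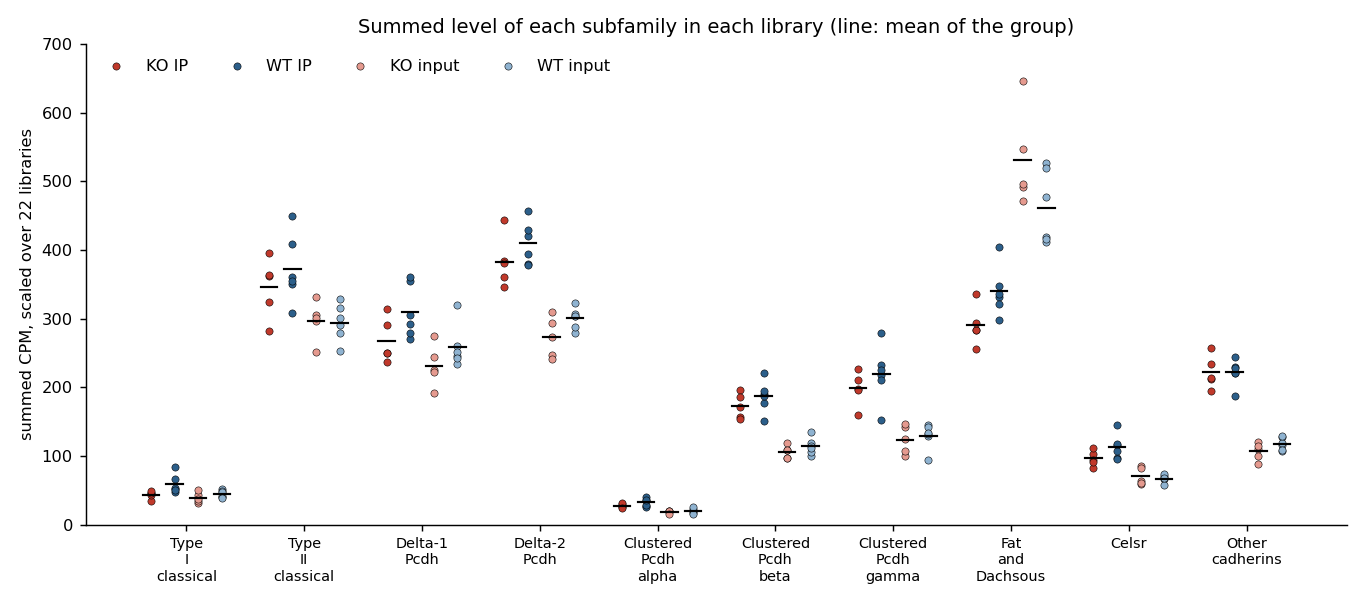
Summed CPM of each subfamily (vertical axis, scaled over all 22 libraries) in every library, with KO IP, WT IP, KO input and WT input from left to right in each subfamily (horizontal axis); a point is 1 library and a line the mean. Delta-2 protocadherins hold the highest mean in IP and the Fat and Dachsous genes the highest in input, in sums not divided by exon length.

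Summed over a subfamily, delta-2 protocadherins led the IP, with 383.2 ± 37.2 CPM in KO IP and 409.7 ± 31.0 CPM in WT IP. They made up 18.7% and 18.1% of all cadherin CPM there. The Fat and Dachsous genes led the input, with 530.7 ± 70.5 CPM in KO input and 461.7 ± 53.3 CPM in WT input, or 29.5% and 25.5% of cadherin CPM. In IP they summed to 290.4 ± 29.0 CPM in KO and 340.0 ± 35.4 CPM in WT. The 22 beta protocadherins summed to 173.2 ± 18.3 CPM in KO IP and 186.7 ± 22.5 CPM in WT IP. Alpha protocadherins were the lowest subfamily in all 4 groups, at 27.5 ± 3.4 CPM in KO IP and 32.3 ± 5.7 CPM in WT IP. Shared exons make the alpha and gamma sums uncertain, so the rank of these clusters may not reflect their level. The sums are not divided by exon length either, so the order of subfamilies is not one of level per length. Median exon lengths were 15091.5 bases for Fat and Dachsous genes, 10464 for delta-2 protocadherins, 5429.5 for type II cadherins and 3714 for beta protocadherins. Fat3 alone had 398.3 CPM in WT input. The plot of summed levels by subfamily shows these sums for each library.

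The comparison of IP with input asks which of these messages are richer on D1 neuron ribosomes than in the lysate. Genes were called at an adjusted p under 0.05 by edgeR's quasi-likelihood test with Benjamini-Hochberg adjustment over 17311 genes. In KO animals 36 of 90 tested cadherin genes were higher in IP and 13 lower, and in WT animals 40 were higher and 10 lower. That is 40.0% higher in KO and 44.4% in WT, where 20.9% and 21.8% of all genes tested were called higher. It is 14.4% lower in KO and 11.1% in WT, where 26.4% and 27.8% of all genes were called lower. Calls in either direction made up 47.3% of all genes in KO and 49.6% in WT. The median log2 fold change of the cadherin genes was 0.47 in KO and 0.52 in WT, beside -0.10 in KO and -0.11 in WT for all genes. In bulk RNA, fewer cells of a type and less RNA per cell cannot be told apart.

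Of the called genes, 32 were higher and 10 lower in both genotypes, and 0 went opposite ways. The shared calls were 85.7% of the KO calls and 84.0% of the WT calls, beside 85.6% and 81.6% over all genes tested. The genotype by assay interaction, which tests whether the ratio of IP to input differs between genotypes, called 0 of 90 cadherin genes and 0 of 17311 genes in all by edgeR, a background of 0%. At an unadjusted p under 0.05 it held 4 cadherin genes (4.44%), a share near the 4.1% of all genes tested. limma-voom and the fit with the animal as block also called 0.

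**Figure D2:**
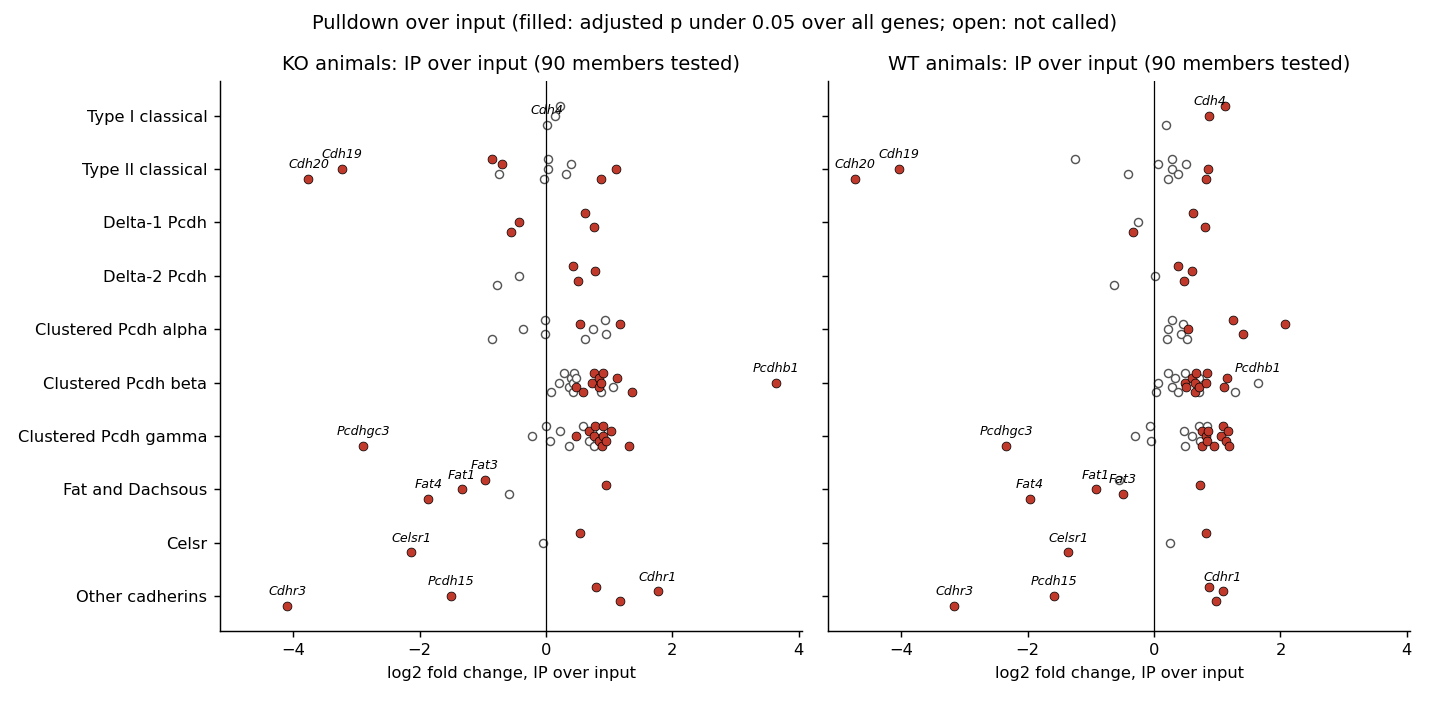
Log2 fold change of IP over input (horizontal axis) for the 90 cadherin genes tested, by subfamily (vertical axis), in KO animals on the left and WT animals on the right; filled points passed an adjusted p of 0.05. All 22 beta protocadherins lie right of 0 in both genotypes, and Cdh19, Cdh20, Cdhr3 and Pcdhgc3 lie farthest left.

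The beta protocadherins leaned to the IP throughout. All 22 beta genes had a positive log2 fold change in both genotypes, with 11 called higher in KO and 11 in WT and medians of 0.65 in each. Pcdhb19 had 17.1, 22.4, 19.7, 17.3 and 22.5 CPM in KO IP, against 12.5, 11.9, 8.63, 13.6 and 8.11 CPM in KO input. In WT it ran from 19.5 to 26.9 CPM in IP (median 23.4) and from 9.42 to 12.98 CPM in input (median 10.2). The IP libraries of each genotype lay above all of its input libraries. The log2 fold change of Pcdhb19 was 0.84 ± 0.15 in KO (SE, edgeR adjusted p = 3.7e-05) and 1.11 ± 0.14 in WT (edgeR adjusted p = 1.31e-07). Pcdhb20 had 1.36 ± 0.19 in KO and 1.15 ± 0.17 in WT. Pcdhb1 had the highest fold of the subfamily in KO, 3.64 ± 1.06, but rested on 9 to 49 reads per library in KO IP and 0 to 6 in KO input.

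In the gamma cluster 11 of 21 tested genes were higher in IP in each genotype, with medians of 0.76 in both. The leading one by level, Pcdhgc5, is a C-type isoform, which neurons express by rule and not by random choice. It had a log2 fold change of 0.76 ± 0.15 in KO (edgeR adjusted p = 9.73e-05) and 0.82 ± 0.13 in WT (edgeR adjusted p = 9.93e-06). The C-type isoform Pcdhgc3 went the other way, with 0.703, 1.26, 1.35, 0.912 and 0.248 CPM in KO IP, against 6.71, 8.74, 5.72, 7.60 and 4.58 CPM in KO input. In WT it had 0.625 to 2.03 CPM in IP (median 1.28), against 4.29 to 8.89 CPM in input (median 6.49). Its log2 fold change was -2.90 ± 0.36 in KO (edgeR adjusted p = 2e-07) and -2.34 ± 0.32 in WT (edgeR adjusted p = 7.53e-07). Pcdhgc3 was the only gamma gene called lower. In the alpha cluster 2 of 10 tested genes were called higher in KO, a share near the 20.9% of all genes tested. In WT 4 of 10 alpha genes were called higher, beside 21.8% of all genes. The C-type Pcdhac2 was called in both genotypes, at 0.53 ± 0.18 in KO and 0.54 ± 0.16 in WT.

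Delta-2 protocadherins were richer in IP for 3 of 5 genes in each genotype. Pcdh10, which in mice acts in axon growth through the striatum, had a log2 fold change of 0.51 ± 0.08 in KO (edgeR adjusted p = 4.03e-06) and 0.47 ± 0.07 in WT (edgeR adjusted p = 2.9e-06). Pcdh17 had 0.43 ± 0.11 in KO and 0.38 ± 0.10 in WT, and Pcdh19, known from X-linked epilepsy, 0.77 ± 0.24 in KO and 0.61 ± 0.22 in WT. The delta-1 protocadherins split. Pcdh7 and Pcdh1 were called higher in both genotypes, with Pcdh7 at 0.76 ± 0.17 in KO and 0.62 ± 0.16 in WT. Pcdh11x was called lower in both, at -0.56 ± 0.12 in KO and -0.33 ± 0.11 in WT. Pcdh9 was called lower in KO at -0.42 ± 0.15, and its call was kept in 10 of 11 fits that left out 1 animal. Of these 11 fits 5 left out a KO animal, and the other 6 kept every KO library.

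Of the other cadherins, Cdh13 had 243, 177, 194, 197 and 216 CPM in KO IP, against 107, 92.5, 67.9, 83.1 and 98.6 CPM in KO input. In WT it ran from 166.6 to 223.2 CPM in IP (median 205.2) and from 89.8 to 114.7 CPM in input (median 99.5). The lowest IP library of either genotype lay above its highest input library. For Cdh13 the log2 fold change was 1.18 ± 0.10 in KO (edgeR adjusted p = 3.2e-10) and 0.97 ± 0.09 in WT (edgeR adjusted p = 1.56e-09). Among the type II cadherins, Cdh8 (0.87 ± 0.11 in KO and 0.82 ± 0.10 in WT) and Cdh22 (1.11 ± 0.26 in KO and 0.85 ± 0.24 in WT) were called higher in both genotypes. Cdh9 and Cdh11 were not called in either. Cdh10 and Cdh6 were called lower in KO only, with folds of -0.92 to -0.77 and -0.80 to -0.53 when 1 animal was left out. In WT these ranges were -0.52 to -0.33 for Cdh10 and -0.08 to 0.16 for Cdh6.

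Cdh20 and Cdh19 stood at the other end of the type II cadherins. Cdh20 had 0.422, 1.35, 1.28, 0.206 and 0.186 CPM in KO IP, against 7.91, 8.37, 10.3, 7.89 and 11.4 CPM in KO input. In WT it had 0.0892 to 0.731 CPM in IP (median 0.347), against 5.47 to 11.8 CPM in input (median 6.80). Every IP library was below every input library. Its log2 fold change was -3.76 ± 0.46 in KO (edgeR adjusted p = 1.39e-07) and -4.74 ± 0.46 in WT (edgeR adjusted p = 1.98e-09). Cdh19, which is known from Schwann cells and the oligodendrocyte lineage, had -3.22 ± 0.43 in KO and -4.04 ± 0.42 in WT. Reads of these genes were few in IP, at 3 to 35 for Cdh20 and 4 to 62 for Cdh19 in KO. Beside them, 14 of 14 oligodendrocyte markers and 8 of 8 oligodendrocyte precursor markers were lower in IP in both genotypes, with medians of -5.02 and -4.65 in KO and -5.27 and -5.03 in WT. Their part in the levels of Cdh19 and Cdh20 was not tested.

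Other glial and vascular lists were lower in IP as well, where 26.4% of all genes were called lower in KO and 27.8% in WT. Of 12 astrocyte markers 11 were lower and 1 higher in each genotype, and 14 of 14 microglial markers were lower. Endothelial and mural markers were lower for 9 of 14 in KO and 11 of 14 in WT, ependyma and choroid plexus markers for 5 of 8 in KO and 6 of 8 in WT, and striatal interneuron markers for 10 of 13 in KO and 12 of 13 in WT. Of 14 cortical excitatory markers 1 was higher and 1 lower in each genotype. None of these lists, nor the D1 and D2 lists, held a gene called between genotypes in IP or in input, where few genes were called at all, and their leans between genotypes are given with the cadherin medians there.

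The large atypical cadherins were mostly lower in IP. Of the 5 tested Fat and Dachsous genes, 3 were lower and 1 higher in each genotype, with medians of -0.97 in KO and -0.56 in WT. Fat4, the receptor for Dchs1, had -1.86 ± 0.66 in KO and -1.97 ± 0.60 in WT on 13 to 46 reads in KO IP and 0 to 147 in WT IP. The KO call of Fat4 was kept in 8 of 11 fits that left out 1 animal, of which 5 left out a KO animal. Fat1, a regulator of actin and cell polarity, had -1.33 ± 0.16 in KO (edgeR adjusted p = 7.73e-08) and -0.92 ± 0.14 in WT (edgeR adjusted p = 4.45e-06). Dchs2 was the one called higher, at 0.95 ± 0.18 in KO and 0.73 ± 0.16 in WT. Celsr2, which guides axon bundles in the forebrain of mice, was higher in both (0.55 ± 0.13 in KO and 0.83 ± 0.12 in WT). Celsr1, known from dividing progenitors and ependyma, was lower in both (-2.13 ± 0.61 in KO and -1.36 ± 0.54 in WT) on 0 to 24 reads in KO IP. The WT call of Celsr1 was lost with the replicate block. It was kept in 7 of 11 fits that left out 1 animal, of which 6 left out a WT animal.

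Of the other cadherins called lower, Pcdh15, a part of the hair cell tip link, had -1.50 ± 0.44 in KO and -1.59 ± 0.41 in WT. Cdhr3, known from ciliated airway cells, had -4.09 ± 1.05 in KO and -3.16 ± 0.97 in WT, on 0 to 9 reads in KO IP and 0 to 5 in WT IP.

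The comparison of KO IP with WT IP asks which messages on D1 neuron ribosomes differ with the Fmr1 mutation. Of 88 tested cadherin genes, 1 was called, Cdh4, which was lower in KO IP. Over all 14456 genes tested in IP 8 were called, all lower in KO, which is 0.0553%. The log2 fold change of KO over WT was negative for 58 cadherin genes and positive for 30, with a median of -0.15, beside a median of 0.00 and 49.3% negative for all genes. At an unadjusted p under 0.05 there were 12 cadherin genes (13.6%), beside 7.62% of all genes tested, and 11 of them were lower in KO IP (12.5%), beside 4.51% of all genes. Cdh4, Cdhr1 and Fat3 are among these 11. The definition names them for their lower level in the mutant, so these shares and the split of signs partly follow from it. Marker lists of other cells leaned too, with no gene called. In KO IP over WT IP, 9 of 10 tested interneuron markers were positive (median 0.64), as were 9 of 10 cortical excitatory markers (0.42), 11 of 14 oligodendrocyte markers (0.17), 9 of 12 astrocyte markers (0.27) and 5 of 6 endothelial and mural markers (0.37), while 7 of 10 D1 markers (-0.08) and 4 of 4 ependyma and choroid plexus markers (-0.76) were negative. Their part in the cadherin median was not tested. With only animals 1, 3, 9 and 12 the median of the cadherin genes was 0.11.

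**Figure D3:**
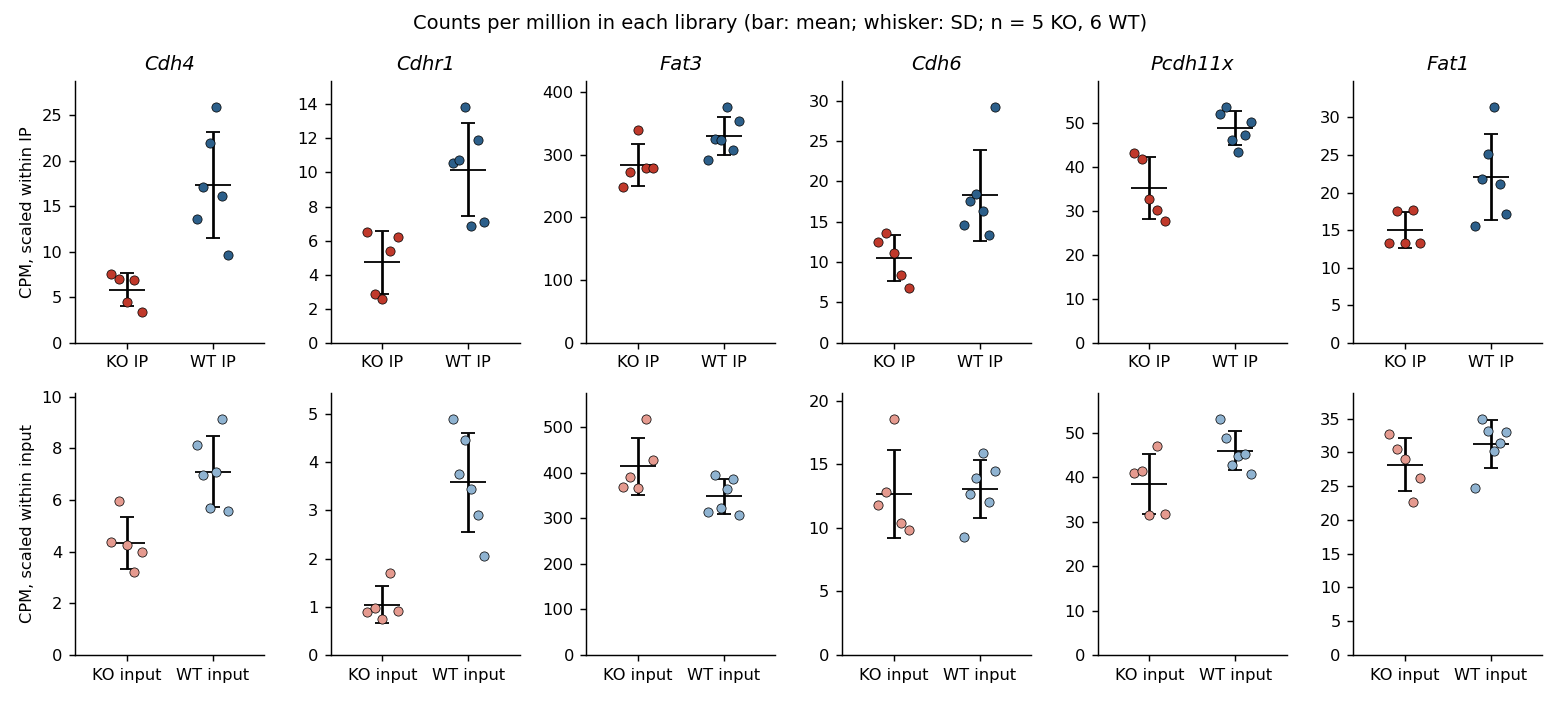
CPM of 6 cadherin genes (vertical axes, scaled within the assay) in each IP library (top) and input library (bottom), KO left and WT right in each panel; points are libraries, bars means and whiskers SD. Cdh4 and Cdhr1 do not overlap between genotypes in IP, nor does Cdhr1 in input, and the Fat3 mean lies lower in KO IP but higher in KO input, where the genotypes overlap.

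Cdh4 encodes R-cadherin, a type I classical cadherin of the retina and brain that binds itself and the catenins. The gene lies on chromosome 2 at 179442431 to 179899373 on the plus strand (mm10, GENCODE vM21), with 7257 exon bases and none shared with another gene. It had 7.57, 6.99, 4.54, 6.87 and 3.37 CPM in KO IP, against 9.65 to 25.9 CPM in WT IP (median 16.6). The highest KO IP library was below the lowest WT IP library. The level rested on 47 to 375 reads per library in KO IP and 208 to 1122 in WT IP. The log2 fold change was -1.55 ± 0.25 (SE, edgeR adjusted p = 0.0211). Cdh4 is named in the definition of the group for its lower level in these data, so its call and lack of overlap are no independent support.

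The size of the Cdh4 difference hardly moved with the libraries, but its call did. Leaving out 1 animal at a time gave log2 fold changes of -1.67 to -1.40, and 4 of 11 such fits called it. The call was lost without WT animal 4, 12 or 13 and without KO animal 3, 9, 10 or 11, at adjusted p of 0.0526 to 0.0736. limma-voom gave -1.35 (adjusted p = 0.198). The call was kept with RLE scaling (edgeR adjusted p = 0.0204), no filter (edgeR adjusted p = 0.00139) and the stricter filter (edgeR adjusted p = 0.0134). It was also kept with DESeq2 (adjusted p = 1.56e-06) and with the cortical marker covariate (-1.55, edgeR adjusted p = 0.0177). The fold was -1.51 (edgeR adjusted p = 0.185) without animals 1, 3, 9 and 12, and -1.61 (edgeR adjusted p = 0.316) with these 4 alone.

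In input Cdh4 had 4.36, 5.95, 4.25, 3.21 and 3.97 CPM in KO, against 5.57 to 9.13 CPM in WT (median 7.02). Here 1 KO library reached into the WT range. The log2 fold change was -0.70 ± 0.20 (edgeR adjusted p = 0.459). The ratio of IP to input within an animal, on CPM scaled over all 22 libraries, was 1.29, 0.907, 0.816, 1.61 and 0.632 in KO, against 1.28 to 2.99 in WT (median 1.59). The ratios of the genotypes overlapped. The log2 fold change of IP over input was 0.02 ± 0.24 in KO (edgeR adjusted p = 0.965) and 0.88 ± 0.22 in WT (edgeR adjusted p = 0.00155), and the interaction was -0.86 ± 0.33 (unadjusted p = 0.0141, edgeR adjusted p = 1).

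The genes most like Cdh4 over the 11 IP libraries, once the mean of each genotype was taken out, were Ntn1 (Pearson's r = 0.932), Tacr1 (0.929), Pop5 (0.925), Atp13a2 (0.918) and Prrc2b (0.902). They were the top 5 of 14455 genes compared, and all values come from the same libraries, whose depth and make-up they share.

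Cdhr1 encodes a cadherin known from photoreceptors and from the projection neurons of the olfactory bulb. The gene lies on chromosome 14 at 37077857 to 37098347 on the minus strand. It had 6.52, 2.87, 2.60, 5.38 and 6.23 CPM in KO IP, against 6.87 to 13.8 CPM in WT IP (median 10.6). In input it had 0.885, 0.982, 0.741, 1.70 and 0.911 CPM in KO, against 2.05 to 4.89 CPM in WT (median 3.60). The genotypes did not overlap in IP or in input, and the KO IP libraries of animals 3 and 9 were the lowest. In input the gene rested on 22 to 39 reads per library in KO and 70 to 164 in WT. Neither assay passed the threshold, with log2 fold changes of -1.10 ± 0.27 in IP (edgeR adjusted p = 0.216) and -1.79 ± 0.31 in input (edgeR adjusted p = 0.0829). Cdhr1 too is named in the definition for its lower level in these data, so its lack of overlap is no independent support.

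The Cdhr1 values moved with the animals and the tool. Without animals 1, 3, 9 and 12 the log2 fold change was -0.60 in IP and -1.40 in input, and with these 4 alone it was -2.15 in IP and -2.43 in input. The input difference was called by edgeR without WT animal 20 (adjusted p = 0.0364), without KO animal 10 (adjusted p = 0.0404) and with no filter on low counts (adjusted p = 0.0298). DESeq2 called it in input (adjusted p = 8.97e-06) and in IP (adjusted p = 0.0164). Cdhr1 was richer in IP than in input in both genotypes, at 1.77 ± 0.31 in KO (edgeR adjusted p = 3.12e-05) and 1.08 ± 0.27 in WT (edgeR adjusted p = 0.00135). Of 5 olfactory bulb projection neuron markers 0 had enough reads for a test, and their sum was 0 to 1.24 CPM in KO IP, 0.0539 to 0.668 CPM in WT IP, 0.135 to 0.451 CPM in KO input and 0 to 0.936 CPM in WT input.

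The upstream sequences of Cdhr1 and Fat3, both named in the definition, are shown because these genes stood on opposite sides in the pulldown, Cdhr1 higher in IP than in input and Fat3 lower. No upstream sequence was available for Cdh4, which the definition also names. Each is the 250 bases before the gene start in RefSeq (GRCm38.p6), on the minus strand, written from 5′ to 3′ with the motif TATAA in capitals.
Cdhr1, chr14:37098348-37098597: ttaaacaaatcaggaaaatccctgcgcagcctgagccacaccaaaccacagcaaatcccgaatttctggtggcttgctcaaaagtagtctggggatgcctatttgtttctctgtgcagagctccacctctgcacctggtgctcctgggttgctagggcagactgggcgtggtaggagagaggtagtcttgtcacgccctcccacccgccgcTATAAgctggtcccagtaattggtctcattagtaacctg
Fat3, chr9:16502055-16502304: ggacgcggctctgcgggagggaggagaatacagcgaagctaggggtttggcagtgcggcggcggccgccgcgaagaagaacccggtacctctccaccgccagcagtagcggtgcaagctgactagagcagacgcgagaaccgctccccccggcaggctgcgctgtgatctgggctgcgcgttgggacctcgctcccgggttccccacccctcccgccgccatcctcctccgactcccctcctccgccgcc
The Cdhr1 sequence held 1 TATAA, which starts 39 bases before the gene start, 6 CG dinucleotides and 53.2% G and C. The Fat3 sequence held no TATAA, 27 CG dinucleotides and 70.4% G and C. TATAA was searched on both strands, as was GGGCGG, which neither sequence held. Over 32851 RefSeq promoters of the same length, 22.8% held TATAA and 32.7% GGGCGG, with medians of 6 CG dinucleotides and 52.4% G and C. Over the 37 promoters of the 34 cadherin genes that matched, 29.7% held TATAA and 29.7% GGGCGG, with medians of 8 and 56.0%. The RefSeq start of Fat3 lies upstream of its GENCODE vM21 start at 16501285, so its window does not adjoin the gene position given below. A match of letters describes the window and says nothing of binding.

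Fat3 lies on chromosome 9 at 15910189 to 16501285 on the minus strand, with 21478 exon bases. It had 248.3, 272.6, 339.2, 278.6 and 278.6 CPM in KO IP, against 291.6 to 375.6 CPM in WT IP (median 324.1). In input it had 367.4, 389.7, 366.2, 516.8 and 426.4 CPM in KO, against 305.8 to 393.6 CPM in WT (median 343.9). The genotypes overlapped in both assays, and KO animal 9 stood highest of its group in IP. For Fat3 the log2 fold change was -0.22 ± 0.08 in IP (edgeR adjusted p = 0.571) and 0.25 ± 0.10 in input (edgeR adjusted p = 0.642) and neither passed. Its lower level in the mutant is part of how the group was defined. With only animals 1, 3, 9 and 12 the IP value was -0.01.

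The ratio of IP to input for Fat3 within an animal was 0.501, 0.54, 0.708, 0.405 and 0.488 in KO, against 0.601 to 0.876 in WT (median 0.745). Only KO animal 9 reached the WT range. Fat3 was called lower in IP than in input in both genotypes, at -0.97 ± 0.10 in KO (edgeR adjusted p = 1.22e-08) and -0.49 ± 0.09 in WT (edgeR adjusted p = 7.15e-05). It had the smallest p of the cadherin genes in the interaction, at -0.48 ± 0.14 (unadjusted p = 0.0018, edgeR adjusted p = 1), which did not pass. The other genes with an unadjusted p under 0.05 there were Cdh4, Cdh6 at -0.76 ± 0.29 and Pcdha7 at -2.43 ± 1.12.

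**Figure D4:**
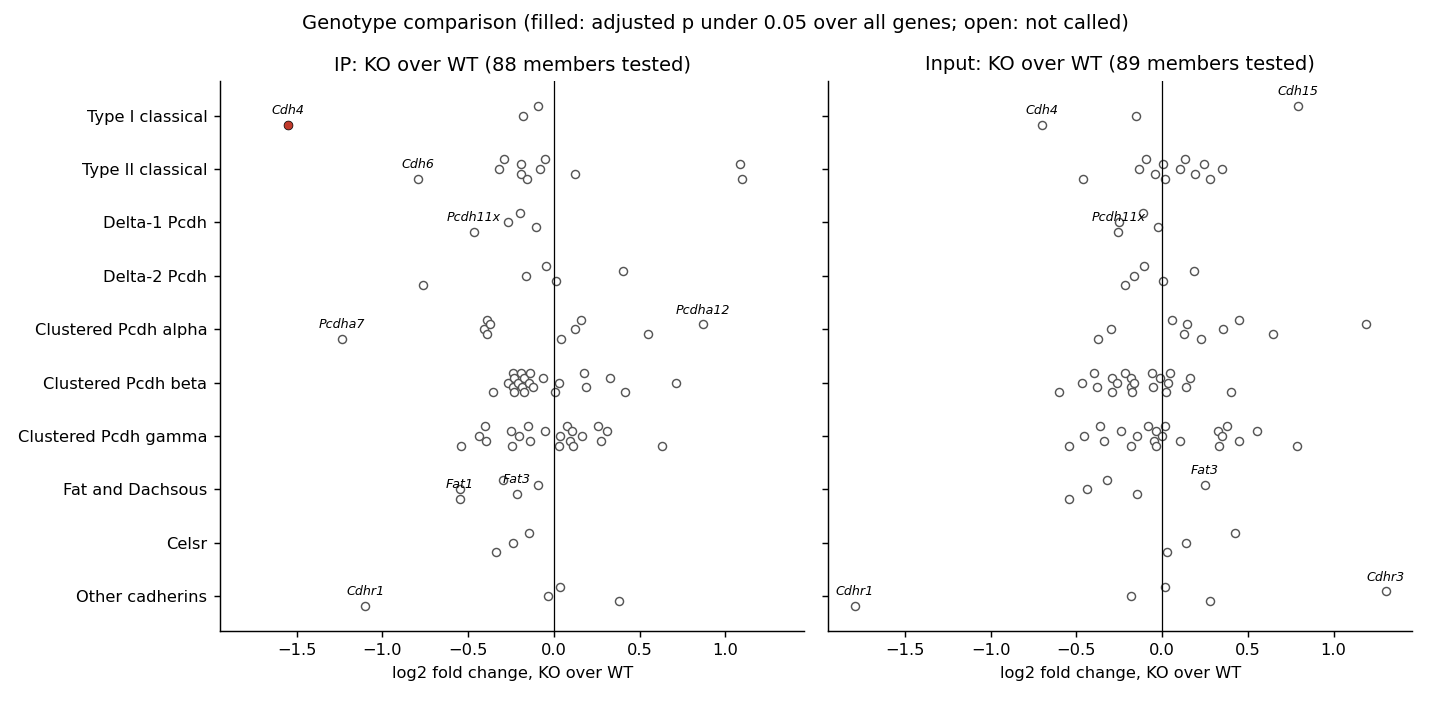
Log2 fold change of KO over WT (horizontal axis) for each cadherin gene tested, by subfamily (vertical axis), in IP on the left and input on the right; filled points passed an adjusted p of 0.05 over all genes. Cdh4 in IP is the only filled point, and the type I, delta-1, Fat and Dachsous and Celsr genes all lie left of 0 in IP.

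The remaining genes with small p in IP did not pass the adjusted threshold. Pcdh11x, an X-linked delta-1 protocadherin, had 43.2, 41.8, 32.7, 30.2 and 27.8 CPM in KO IP, against 43.4 to 53.5 CPM in WT IP (median 48.7). The groups did not overlap, but the highest KO library nearly met the lowest of WT. Its log2 fold change was -0.47 ± 0.12 in IP (edgeR adjusted p = 0.249) and -0.26 ± 0.11 in input (edgeR adjusted p = 0.685), and DESeq2 called it in IP (adjusted p = 0.031). The type II cadherin Cdh6 had 12.5, 13.6, 11.1, 8.42 and 6.80 CPM in KO IP, against 13.4 to 29.2 CPM in WT IP (median 16.9). These groups overlapped by 1 KO library, and the log2 fold change was -0.79 ± 0.21 in IP (edgeR adjusted p = 0.277) and -0.04 ± 0.17 in input. Fat1 had -0.55 ± 0.17 in IP, Pcdhgc5 -0.40 ± 0.13, Pcdhga3 -0.40 ± 0.16, Celsr2 -0.24 ± 0.10 and Pcdhac2 -0.37 ± 0.15. Their edgeR adjusted p lay between 0.426 and 0.604.

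By subfamily, the median log2 fold change of KO over WT in IP was lowest for Fat and Dachsous genes (-0.29, 5 of 5 tested negative), Celsr genes (-0.24, 3 of 3) and delta-1 protocadherins (-0.23, 4 of 4). In input these medians were -0.32 for Fat and Dachsous genes, 0.14 for Celsr genes and -0.18 for delta-1 protocadherins. In IP the medians were -0.18 for type I (3 of 3 tested negative) and -0.16 for type II cadherins, and -0.05 for delta-2 protocadherins. They were -0.16 for the alpha and -0.16 for the beta cluster, 0.03 for the gamma cluster and 0.00 for the other cadherins. None of these subfamilies other than type I held a called gene. The type II genes Cdh20 and Cdh19 had 1.08 ± 0.69 and 1.09 ± 0.63 in IP, which did not pass, and their low IP reads are given above.

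In input, 0 of 89 tested cadherin genes were called between KO and WT by edgeR, where 3 of 16429 genes were called in all (0.0183%). The cadherin median was -0.04, beside 0.00 for all genes, with 48 negative and 41 positive. In KO input over WT input, 10 of 10 D1 markers (median -0.27) and 6 of 6 tested D2 markers (-0.13) were negative, and 9 of 10 cortical excitatory markers (0.59) and 11 of 14 oligodendrocyte markers (0.11) were positive. Their part in the cadherin values was not tested. At an unadjusted p under 0.05 there were 8 cadherin genes (8.99%), beside 6.84% of all genes tested. limma-voom called 0 and DESeq2 called 1, Cdhr1. Beyond those above, Pcdh10 had -0.21 ± 0.08, Pcdhgc5 -0.36 ± 0.14, Cdh15 (M-cadherin of muscle) 0.79 ± 0.38 and Cdhr3 1.31 ± 0.52, with edgeR adjusted p of 0.576 to 0.728. Cdhr3 rested on 8 to 93 reads in KO input and 8 to 24 in WT input.

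The authors' deposited table for IP, with log2 values as WT over KO, gave 4 cadherin genes an adjusted p under 0.05, all higher in WT, of 65 with an adjusted p (81 of 10769 genes in that table, 0.752%, and 70 higher in WT, 0.65%). These were Cdh4 (adjusted p = 3.13e-06), Cdhr1 (adjusted p = 0.0154), Pcdh11x (adjusted p = 0.0258) and Cdh6 (adjusted p = 0.0465). The authors' deposited table for input gave 1 of 89, Cdhr1 (adjusted p = 1.9e-05), beside 0.237% of 17692 genes, and Cdh4 there had an adjusted p of 0.0927. Each of the authors' deposited tables holds a pair of log2 columns, lfcMLE and log2FoldChange, and they differ in size. For Cdh4 in IP the authors' deposited table has 1.56 as lfcMLE and 0.78 as log2FoldChange, and for Cdhr1 in input 1.80 and 0.85.

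Few partners of the cadherins were called between genotypes. Of 25 catenins and cadherin adaptors 23 were tested in IP, and 1 was called, beside 0.0553% of all genes tested. This was Pkp4, a catenin-related armadillo protein of cell junctions, lower in KO IP at -0.49 ± 0.08 (edgeR adjusted p = 0.0318). The list was chosen with earlier results of these data known, so the call is no independent support. The median of the catenins and adaptors was -0.10, and the scaffold Magi1 had -0.23 ± 0.09. Of 19 tested partners of Fat, Dachsous and Celsr 0 were called, with a median of 0.02, and the planar polarity genes Vangl2 and Prickle2 had -1.26 ± 0.62 and 0.11 ± 0.05. Of 15 tested genes of the WAVE complex and protocadherin effectors 0 were called, with a median of -0.04, and the WAVE subunits Nckap1 and Cyfip2 had -0.28 ± 0.06 (edgeR adjusted p = 0.176) and -0.19 ± 0.06 (edgeR adjusted p = 0.388).

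Among regulators of the clustered protocadherins, such as the boundary factor Ctcf and cohesin, 0 of 16 tested were called in IP, with a median of 0.03. The cohesin subunit Stag1 had 0.28 ± 0.09 and the cohesin release factor Wapl -0.15 ± 0.07. Of 10 genes of cadherin cleavage 0 were called, with a median of -0.12, and the protease Capn1 and the gamma-secretase subunit Ncstn had -0.47 ± 0.19 and 0.32 ± 0.16. Of 4 tested cadherin-repeat genes outside the symbol rule 0 were called, with a median of -0.12, and the calsyntenins Clstn3 and Clstn1 had -0.21 ± 0.12 and -0.12 ± 0.12. In input none of these 6 lists held a called gene. Against input, 20.9% of all genes tested were called higher in IP in KO and 21.8% in WT, and 26.4% and 27.8% lower. Regulators of the clustered protocadherins had 11 of 16 tested genes higher in IP in KO and 13 in WT, with 1 lower in each. Catenins and adaptors had 9 higher and 8 lower of 23 in KO, and 10 higher and 6 lower in WT. WAVE genes and effectors had 8 higher and 3 lower of 17 in KO, and 9 higher and 4 lower in WT. Partners of Fat, Dachsous and Celsr had 4 higher and 5 lower of 21 in KO, and 4 higher and 6 lower in WT. Cleavage genes had 2 higher and 5 lower of 10 in KO, and 1 higher and 3 lower in WT, and the other cadherin-repeat genes 2 higher and 1 lower of 5 in each.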

How the data were processed

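RNA was sequenced from 11 IP and 11 input libraries of 11 animals. The authors deposited raw counts per gene, whole numbers for 55341 symbols, made with STAR and featureCounts on mm10 per the submitters' processing notes, where versions are missing. The authors also deposited tables of log2 fold changes (WT over KO) with p-values per assay; the notes list DESeq2 too. These tables were used only where named. All 55341 symbols were found in GENCODE vM21, which gave positions and exon lengths. No column was left unmapped.

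Counts were fitted with edgeR 4.0.16 in R 4.3.3 (TMM scaling, filterByExpr, robust quasi-likelihood test, Benjamini-Hochberg adjustment over all genes tested, threshold 0.05). KO against WT was fitted within the 11 libraries of an assay, and IP against input and the interaction over all 22 libraries in 4 groups. A standard error is the log2 fold change over the square root of the F statistic. CPM were scaled by TMM within an assay for comparisons of genotype, and over all 22 libraries for subfamily sums, levels per kilobase and values of IP beside input. The fits were also run on simulated counts with known changes, placed only in genes above a set mean count. That run does not cover genes with few reads, and no result here rests on it. Alternatives were RLE scaling, no filter, a filter of 1 CPM in 5 libraries, limma-voom (limma 3.58.1), DESeq2 1.42.0, leaving out each animal, leaving out or keeping only animals 1, 3, 9 and 12, a cortical marker covariate, and the animal as replicate block.

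IP and input of 1 animal come from the same lysate per the labels' protocols, so the animal numbers were taken to pair the libraries. Within a pair, deviations from the group means correlated at 0.115 to 0.243 over 17311 genes in all 11 pairs. Libraries of different animals were not compared in this way, so these values do not test the pairing. The labels do not say that animals were of separate litters, so p-values of KO against WT measure the spread between these animals. Reported p-values of IP against input and of the interaction come from a fit without the animal as block. That fit treats both libraries of an animal as independent.

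The members and lists were chosen with earlier results of these data known. Named genes are Fmr1, Cdh4, Cdhr1 and Fat3, the members called or with the 10 smallest p in a comparison of genotype or the interaction, up to 15 called members with the largest folds in each direction in IP against input, the 3 highest per kilobase in a subfamily, called or leading members of the 6 pathway lists, and the 5 genes most like Cdh4. Cdh1, Cdh16, Cdh17, Cdh23, Cdhr5 and Fat2 were named as undetected or untested members after their counts were seen. Cdh4, Cdhr1 and Fat3 were picked for their direction, so no separate permutation test of them is given.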

Additional observations from a re-analysis of the deposited data

Results flagged for a closer look

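Of 76 groups of libraries checked over 19 cadherin genes, 2 held a library far from the others of its group, where chance flags about 1 group in 20. Both libraries came from WT animal 20, whose input also stood apart in its ependyma and choroid plexus markers. Cdh15 had 0.439 CPM (15 reads) in the input of WT animal 20, against 1.11 to 1.73 CPM in the other WT inputs. Pcdhgb5 had 9.68 CPM (249 reads) in the IP of WT animal 20, against 3.51 to 4.54 CPM in the other WT IP libraries. The part of the tissue markers in these values was not tested.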

How the results depend on the processing

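Counts of cadherin genes called between IP and input stayed within 1.5 times of the reported counts under the alternatives run. The animal as replicate block gave 54 calls in KO and 58 in WT, beside 49 and 50 without it, and 0 in the interaction. Leaving out 1 animal at a time gave 43 to 53 calls in KO and 43 to 51 in WT, and leaving out animals 1, 3, 9 and 12 gave 36 in KO and 44 in WT. Fits without an animal of the other genotype keep all libraries compared. Without 1 KO animal the KO calls were 43 to 49, and without 1 WT animal the WT calls were 43 to 50. In KO IP against WT IP, 0 genes were called with limma-voom, without animals 1, 3, 9 and 12, or with these 4 alone, 3 with DESeq2 (Cdh4, Cdhr1 and Pcdh11x), and 0 to 1 with 1 animal left out, beside 1 reported. In KO input against WT input, 1 gene (Cdhr1) was called with no filter or with DESeq2 and 0 to 1 with 1 animal left out, beside 0 reported. Over all genes in IP, DESeq2 called 87, limma-voom 4, fits without 1 animal 4 to 8 and only animals 1, 3, 9 and 12 gave 3, beside 8 reported. Over all genes in input, DESeq2 called 53, no filter 5, the fit without those animals 7 and with them alone 8, beside 3. Fits without 1 animal called 2 to 7 there, with 7 without WT animal 12 and 2 without WT animal 4, WT animal 14 or KO animal 3. The median of the cadherin genes in IP was 0.11 with only animals 1, 3, 9 and 12, beside -0.15, and -0.19 to -0.06 with 1 animal left out. The cause of these shifts was not tested.

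A few folds near 0 changed sign between IP and input. Cdh4 in KO, reported at 0.02, was -0.03 with RLE scaling, -0.014 with the stricter filter, -0.018 with the replicate block and -0.13 to 0.12 with 1 animal left out. Cdh6 in WT was -0.025 with limma-voom and -0.08 to 0.16 with 1 animal left out. Pcdha7 in KO was 0.58 without animals 1, 3, 9 and 12 and -0.68 to 0.31 with 1 animal left out. Cdh15 in KO was -0.14 to 0.69 with 1 animal left out. Few reads limit Cdhr1 in input, Cdhr3, Celsr1, Fat4 and Pcdhb1, and shared exons limit single alpha and gamma protocadherins and the sums of these clusters.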
